A study of Sus scrofa with 8 samples.

Results

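CTCF binding and H3K4me3 were compared around gene starts in pig embryonic fibroblasts (PEFs), using the 2 CTCF and the 2 H3K4me3 ChIP-seq libraries, that is 4 of the 8 samples of the series. The cells were grown from Large White fetuses taken at day 35 and were untreated, so the libraries share breed, cell type and condition. They differ in the antibody, and the inputs are labelled separately, as histone input and CTCF input. An effect of the antibody thus cannot be told apart from one of the control or the preparation. The other samples are 2 H3K27ac libraries, which are set beside the main comparison in a few places, and 2 input samples, which were not analysed here. The labels do not say whether replicates came from separate fetuses or cultures, so p-values measure only the spread between these libraries, which may be technical. The members were all peaks on chromosomes 1 to 18 and X, namely 39854 and 44209 CTCF peaks and 37495 and 43075 H3K4me3 peaks in replicates 1 and 2. Each peak was placed by its summit, the base of highest enrichment, relative to the nearest of 28077 RefSeq gene starts of the Sscrofa11.1 assembly, with upstream and downstream read along the strand of the gene.

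CTCF is a zinc finger protein that binds a long, asymmetric DNA motif and, together with the cohesin ring, anchors chromatin loops. Because the motif is asymmetric, each bound site has a direction on the chromosome. H3K4me3 is a histone modification laid down by methyltransferases at promoters, where it covers the nucleosomes beside the gene start, and it is widely used as a mark of active or poised promoters.

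The 12 of 13 fibroblast genes with an H3K4me3 peak over their start in both libraries included COL1A1, COL1A2, COL3A1, VIM, PDGFRA, THY1 and TWIST1. FN1 had no peak over its annotated start in either library, but it had one within 1 kb of it in at least 1 library. A peak over the start in both libraries was found for 6 of the 23 listed genes of other cell types, namely EPCAM, CDH1, KRT18, MYOD1, SOX2 and NEUROD1. It was not found for the blood gene PTPRC, the endothelial gene CDH5, the liver gene ALB or the pluripotency genes POU5F1 and NANOG. TUBB3, also listed, was not found by symbol among the gene starts and could not be scored. Among all gene starts the share was 50.1%. The libraries of one antibody were not alike in every respect. H3K4me3 replicate 2 had a lower median fold enrichment over control (6.15) than replicate 1 (9.19), whereas the CTCF replicates were close (19.7 and 19.2). The deposited lists hold no read counts, so the depth behind a peak cannot be read from them. The study gives a summary of its ChIP-seq data in its supplement, which was not used here.

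The direction of a CTCF site can be read from its sequence. The motif learned from the 600 strongest peaks of CTCF replicate 1 on odd-numbered autosomes had the consensus NNNCCACNAGNGGGCNNNN, searched on both strands within 100 bp of a summit. It was present at 88.5% and 87.3% of CTCF summits against 10.7% and 10.6% of positions 1 kb away. For H3K4me3 the shares were 21.5% and 15.8% of summits against 11.9% and 11.3% of positions 1 kb away. The sequences below are shown because direction relative to the gene is compared later, and they give examples of both directions upstream and downstream of the start. Each is the strand of the gene, 5′ to 3′, with the motif in capitals, so that a motif along the gene shows the GGGC core and a motif against it shows the GCCC core. Upstream sites are printed with 20 bases on either side, and sites inside transcribed sequence as the motif alone. 
DHX8, upstream, along (chr12:19582286-19582344, minus strand): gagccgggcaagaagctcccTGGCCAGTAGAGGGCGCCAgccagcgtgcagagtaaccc
KDM3B, upstream, along (chr2:140345903-140345961, plus strand): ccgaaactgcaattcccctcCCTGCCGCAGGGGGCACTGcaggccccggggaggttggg
TLR10, upstream, along (chr8:30134881-30134939, minus strand): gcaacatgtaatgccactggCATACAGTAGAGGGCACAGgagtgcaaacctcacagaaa
LAMTOR5, upstream at the H3K4me3 boundary, along (chr4:109720972-109721030, plus strand): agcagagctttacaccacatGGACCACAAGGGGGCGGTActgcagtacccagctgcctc
FMO4, upstream, against (chr9:63908741-63908799, plus strand): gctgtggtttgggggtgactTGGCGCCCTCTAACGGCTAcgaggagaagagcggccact
CCDC83, downstream, along (chr9:19769551-19769569, plus strand): CTGCCACCAGGGGGCGCGC
USH1G, downstream, against (chr12:6333897-6333915, plus strand): TAGCGCCCCCTGCTGGAAC
METTL25, downstream, against (chr5:99358307-99358325, minus strand): GCGCGCCCCCTGGCGGAAG
Coordinates are those of Sscrofa11.1. None of the 5 upstream sites lay within an annotated gene, and each of the 3 downstream sites lay in an exon of the gene it is named for.

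Near gene starts, CTCF summits were densest just upstream of the start, whereas most H3K4me3 summits were downstream of it. The fullest 100 bp bin of CTCF was the one directly upstream of the start, from -100 to 0 bp, with 543 and 631 summits, whereas the bin directly downstream held 284 and 346. H3K4me3 was fullest at 200 to 300 bp downstream in replicate 1 (2139 summits, with 2133 in the next bin) and at 300 to 400 bp in replicate 2 (1298 summits). It had a smaller second maximum upstream, at -300 to -200 bp (307 summits) and -400 to -300 bp (308 summits), so that its summits flanked the stretch in which CTCF was densest. Of the summits within 1 kb of a start, 25.7% and 25.4% of CTCF but 4.40% and 4.82% of H3K4me3 were in the 200 bp upstream. The median position within 1 kb was -28.5 and -20.0 bp for CTCF and 317 and 391 bp for H3K4me3.

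**Figure D1:**
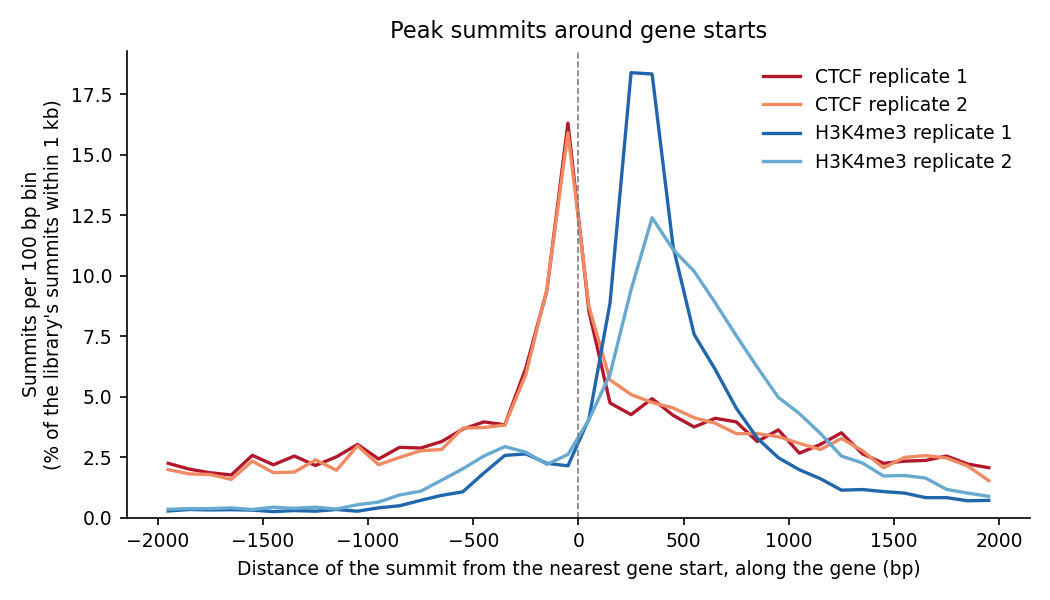
Summits of the 4 libraries in 100 bp bins from 2 kb upstream to 2 kb downstream of the nearest gene start, as a percentage of each library's summits within 1 kb. Both CTCF lines peak in the bin directly upstream of the start (16.3% and 15.9%), and the H3K4me3 lines peak downstream of it, replicate 2 lower and farther downstream than replicate 1.

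The upstream share of summits within 1 kb was 54.8% in CTCF replicate 1 (1823 upstream, 1505 downstream; Wilson 95% interval 53.1 to 56.5%) and 52.9% in replicate 2 (2096 and 1864; 51.4 to 54.5%). It was 15.1% in H3K4me3 replicate 1 (1757 upstream, 9873 downstream; 14.5 to 15.8%) and 19.3% in replicate 2 (2021 and 8447; 18.6 to 20.1%). These intervals, as all others here, cover counting error only. The means were 53.9% ± 1.31 (SD, n = 2) for CTCF and 17.2% ± 2.97 (SD, n = 2) for H3K4me3, and the groups did not overlap. Their difference of 36.6 percentage points gave p = 0.333 in an exact two-sided permutation test over the 4 libraries, which is the smallest p that 2 against 2 libraries can give. The same p, raw and after Benjamini-Hochberg adjustment, was found for all 8 measures of position compared in this way, since none of them overlapped between the groups, and none can pass 0.05 in this design. By chromosome, the CTCF share was over 50% on 15 and 13 of 19 chromosomes, with a range of 48.3 to 62.5% in replicate 1 and 46.2 to 60.6% in replicate 2. H3K4me3 was over 50% on 0 of 19 chromosomes in both libraries, its highest values being 20.3% and 27.6%. The H3K27ac libraries, at 25.4% and 23.6%, were nearer to H3K4me3 than to CTCF.

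Among these bands of distance, CTCF had an upstream excess in the first 250 bp. The upstream share was 65.8% and 65.0% within 100 bp of the start and 65.4% and 59.7% from 100 to 250 bp. From 250 to 500 bp the shares were 47.8% and 47.4%, with intervals that include 50%. From 500 bp to 1 kb CTCF was more frequent downstream, with 44.8% and 43.2% upstream, and the intervals stayed under 50%. H3K4me3 had its lowest upstream share from 250 to 500 bp in replicate 1 (12.8%) and from 500 bp to 1 kb in replicate 2 (14.2%). From 1 to 10 kb, the upstream share was 48.5% and 47.9% in the CTCF libraries and 36.2% and 32.9% in the H3K4me3 libraries, a difference of 13.7 percentage points (48.2% ± 0.397 against 34.5% ± 2.35, SD, n = 2; p = 0.333, exact permutation test, two-sided). Counting every pair of summit and start instead of the nearest start brought this difference to 6.19 percentage points. The H3K4me3 shares were then 46.9% and 44.1% and the CTCF shares 51.8% and 51.5%, so that H3K4me3 moved more than CTCF. At starts with no other start within 20 kb the CTCF shares were 52.1% and 51.0%, and those of H3K4me3 35.9% and 32.3%. The side of 50% on which CTCF lay at 1 to 10 kb thus depended on the setting.

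**Figure D2:**
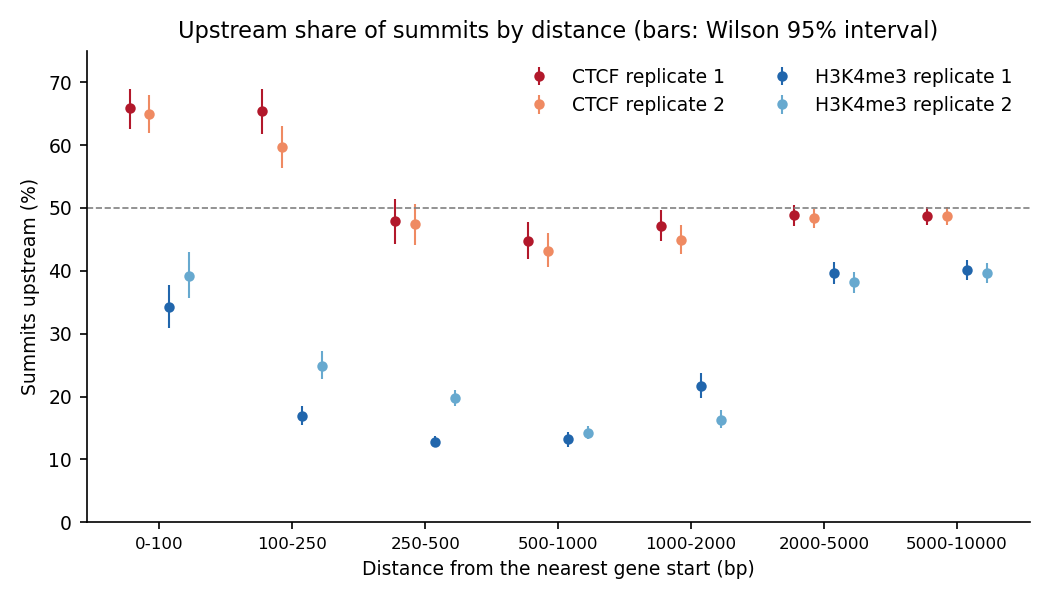
Upstream share of summits in 7 bands of distance from the nearest gene start, for the 4 libraries, with Wilson 95% intervals as bars and a dashed line at 50%. CTCF is above 60% or close to it in the first 2 bands and under 50% beyond, and H3K4me3 is under 40% in every band except 5 to 10 kb in replicate 1 (40.1%).

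Both CTCF and H3K4me3 were denser at gene starts than farther away, H3K4me3 by more. Within 1 kb of a start lay 8.36% and 8.98% of CTCF summits and 31.0% and 24.3% of H3K4me3 summits. The density of summits within 1 kb, relative to that at 5 to 10 kb, was 3.80 and 4.21 for CTCF and 16.4 and 13.4 for H3K4me3. The means were 4.003 ± 0.293 and 14.9 ± 2.11 (SD, n = 2), a difference of -10.9 with the same exact permutation p of 0.333. When every pair of summit and start was counted, the difference was -5.30.

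The position of a CTCF peak varied with its strength. Peaks of each library were divided into 4 groups of about equal size by fold enrichment, and the upstream share within 1 kb was taken in each. In replicate 1 it was 42.0%, 53.2%, 62.4% and 67.3% from the weakest to the strongest group. In replicate 2 the shares were 39.4%, 50.4%, 59.4% and 68.9%. The intervals of the weakest and strongest groups did not overlap (38.9 to 45.2% and 63.3 to 71.2% in replicate 1, 36.6 to 42.2% and 65.5 to 72.1% in replicate 2). Weak CTCF peaks were thus more often downstream of the start and strong peaks upstream. The motif share changed with strength to a like degree on both sides, from 68.3% upstream and 67.1% downstream in the weakest to 96.4% and 94.9% in the strongest group of replicate 1. H3K4me3 showed the opposite order, its upstream share going from 35.1% and 36.7% in the weakest group to 10.5% and 15.7% in the strongest. The median fold enrichment of CTCF peaks was 20.1 and 21.4 within 1 kb upstream and 13.5 and 11.5 within 1 kb downstream.

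The side also differed between kinds of gene. Nearest to protein-coding genes, 56.4% and 53.9% of CTCF summits within 1 kb were upstream, and nearest to lncRNA genes 44.5% and 46.5%. The intervals of these gene classes did not overlap (54.6 to 58.2% and 39.8 to 49.3% in replicate 1, 52.2 to 55.6% and 42.1 to 50.9% in replicate 2). For H3K4me3 the corresponding shares were 12.6% and 17.0% for protein-coding and 34.4% and 32.7% for lncRNA genes. At starts with and without H3K4me3 the side of CTCF was similar. CTCF was upstream in 57.1% and 54.4% of cases at starts under an H3K4me3 peak in both libraries, and in 55.2% and 55.3% at starts with no such peak within 1 kb in either library, with overlapping intervals (55.2 to 59.0% and 50.4 to 60.0% in replicate 1).

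Counted by gene, 1984 of 28077 starts (7.07%) had their nearest CTCF summit 1 to 1000 bp upstream in both CTCF libraries and 1479 (5.27%) had it 1 to 1000 bp downstream in both. Within 1 kb on either side it was 3591 (12.8%). Of these, 3463 (96.4%) had the summit on the same side in both libraries, and the median difference in position between the libraries was 16.0 bp. At the 14067 starts under H3K4me3 in both libraries, the H3K4me3 summits of the replicates were 165 bp apart in the median, and 86.8% were on the same side of the start. CTCF was within 1 kb in both libraries at 20.8% of starts under H3K4me3 and at 3.22% of starts with none within 1 kb.

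CTCF was frequent inside H3K4me3 peaks, and its density rose across their boundaries. The H3K4me3 peaks covered 2.69% and 3.19% of the assembled chromosomes and held 18.4% and 20.3% of the CTCF summits of the same-numbered library. Of the H3K4me3 peaks, 18.5% and 19.5% held at least 1 CTCF summit, and 388 and 519 held more than 1, at most 5. Per Mb, CTCF summits numbered 11.7 and 12.8 at over 10 kb outside a peak, 20.8 and 25.3 at 250 to 500 bp outside, and 67.2 and 61.1 within 250 bp outside. Inside, the density was 109 and 103 within 250 bp of the boundary, 150.5 and 134 at 250 to 500 bp, and 86.8 and 108 at 1 to 2 kb. The density at the inner edge relative to the rest of the peak was 0.942 and 0.835, and that outside within 250 bp relative to the interior was 0.579 and 0.495. At 500 bp to 1 kb inside, the density was 123 and 140.0 per Mb, and at over 2 kb inside it was 79.7 and 88.6, so that in replicate 1 the 250 bp edge was less dense than the stretch next to it and denser than that beyond 1 kb. With an edge of 500 bp the first ratio was 1.23 in replicate 1 and 0.974 in replicate 2, so that the libraries were on different sides of 1.

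**Figure D3:**
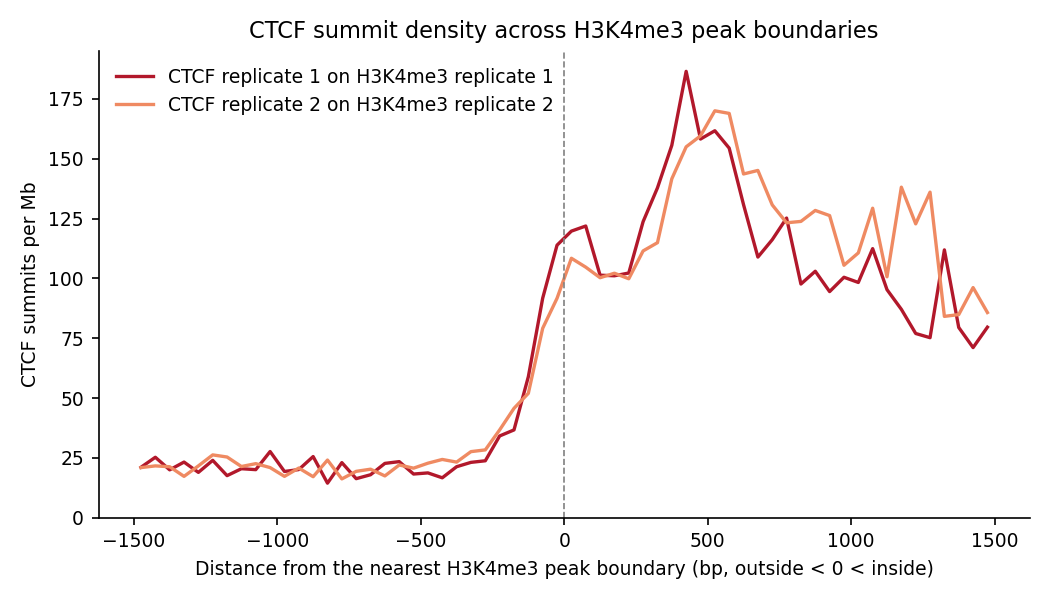
Density of CTCF summits in 50 bp steps across H3K4me3 peak boundaries, from 1.5 kb outside (negative) to 1.5 kb inside, in same-numbered libraries. The first 50 bp inside the boundary hold 120 and 108 per Mb, and the lines are highest at 400 to 450 bp inside in replicate 1 (186 per Mb) and at 500 to 550 bp inside in replicate 2 (170.0 per Mb).

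Where CTCF lay differed with the width of the H3K4me3 peak. For H3K4me3 peaks of under 500 bp, its density within 250 bp outside the boundary was 161 and 133 per Mb and that inside 136 and 134. Around wider peaks it was denser inside, with 67.8 and 72.5 outside against 149.8 and 132 at the inner edge for peaks of 500 bp to 1 kb, and 37.8 and 37.0 against 70.6 and 72.6 for peaks of 2 to 4 kb. In each of the 4 width classes from 500 bp up, the ratio of inner edge to interior was under 1 in both libraries, between 0.595 and 0.856. The share of H3K4me3 peaks with a CTCF summit went from 5.51% and 5.94% in the narrowest to 41.0% and 46.0% in the widest class (4 kb or wider), while summits per Mb went from 136 and 134 to 89.2 and 98.4. CTCF peaks near a boundary were the stronger ones. Their median fold enrichment was 26.0 and 28.2 inside within 250 bp and 24.7 and 26.7 outside within 250 bp, against 16.4 and 15.3 deeper inside.

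H3K4me3 peaks that held exactly 1 gene start (9489 and 9437) could be read along the gene. They reached farther downstream (median 1710 and 1805 bp) than upstream (718 and 767 bp), so that 29.5% of their length was upstream in both libraries. CTCF summits in these peaks were upstream in 50.4% and 47.4% of cases. Per Mb this gave 176 and 189 on the upstream side and 72.2 and 87.6 on the downstream side, ratios of 2.43 and 2.16. CTCF was densest within 100 bp of the start itself (263 and 329 per Mb). The upstream interior had 159 and 173 per Mb and the downstream interior 66.6 and 82.1. The inner upstream edge (91.9 and 88.1) was denser than the inner downstream edge (34.5 and 42.5). Outside, the upstream (42.2 and 40.5) and downstream (34.04 and 36.04) flanks were closer to each other. These zones were counted in the 7874 and 7992 peaks wide enough to hold all of them.

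**Figure D4:**
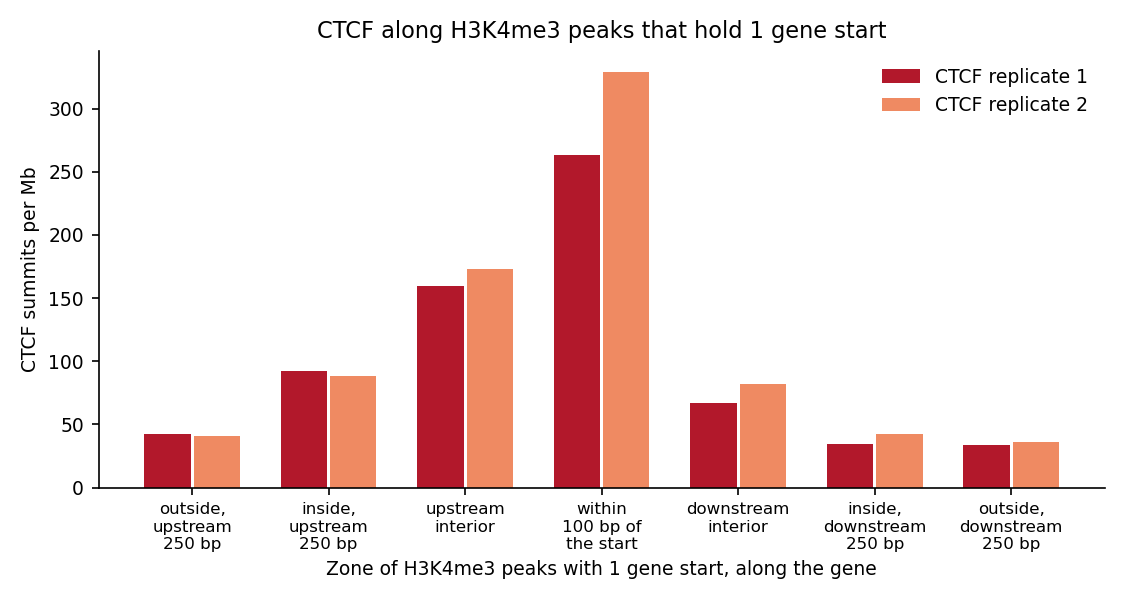
CTCF summits per Mb in 7 zones of H3K4me3 peaks with exactly 1 gene start, ordered along the gene from the flank upstream to the flank downstream, as bars for the 2 replicates. The zone within 100 bp of the start is highest in both (263 and 329 per Mb), and the inner upstream edge exceeds the inner downstream edge.

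In peaks with 1 start that held a CTCF summit, the strongest CTCF summit was upstream of the H3K4me3 summit in 1728 of 2586 peaks (66.8%; Wilson 95% interval 65.0 to 68.6%) in replicate 1 and in 2131 of 3122 (68.3%; 66.6 to 69.9%) in replicate 2. The median offset was -314 and -382 bp. The H3K4me3 summit was at a median of 310 and 424 bp from the start where CTCF was upstream, 468 and 678 bp where CTCF was downstream, and 327 and 444 bp in peaks with no CTCF. H3K4me3 reached 1701 and 1806 bp downstream in the median with CTCF upstream, 2289 and 2364 bp with CTCF downstream and 1640 and 1708 bp without CTCF. A longer downstream arm also offers more room for a CTCF summit, and the part of this in the difference was not tested.

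The direction of the motif followed the gene at upstream sites. Within 1 kb upstream, the motif read along the gene at 988 of 1568 CTCF summits with a motif (63.0%; 60.6 to 65.4%) in replicate 1 and at 1089 of 1769 (61.6%; 59.3 to 63.8%) in replicate 2. Within 1 kb downstream the shares were 53.1% (50.3 to 55.9%) and 52.0% (49.4 to 54.5%), so that the interval of replicate 2 includes 50%. Nearest to the start, in the 200 bp upstream, the share was 70.6% and 69.1%, and from 200 bp to 1 kb upstream it was 56.0% and 54.4%. At 1 to 10 kb it was between 50.3% and 50.5% on both sides in both libraries, with intervals that include 50%. At starts under H3K4me3 in both libraries, 64.8% and 63.2% of upstream motifs read along the gene. At starts without H3K4me3 within 1 kb the shares were 55.6% and 55.7%, from 205 and 230 motifs. Their intervals (48.8 to 62.2% and 49.2 to 61.9%) include 50% and overlap those at starts under H3K4me3 (62.1 to 67.3% and 60.7 to 65.7%). By peak strength, the 4 groups from weakest to strongest had 63.1%, 59.0%, 63.6% and 66.8% along the gene upstream in replicate 1 and 56.6%, 59.4%, 63.5% and 64.2% in replicate 2.

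The genome sequence at gene starts showed the same asymmetry where CTCF was bound. A stringent match to the motif (p under 0.00001 per position) lay in the 200 bp upstream of 5.11% of all starts, along the gene at 3.10% and against it at 2.17%. At starts with CTCF within 1 kb in both libraries these were 14.3% and 6.91%, and at starts with CTCF in neither library 1.27% and 1.34%. In the 200 bp downstream of all starts, 1.80% had a match along the gene and 1.70% one against it. The CTCF-bound starts were chosen by their peaks, so these shares are a description.

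At H3K4me3 boundaries the motif pointed into the H3K4me3 peak more often than out of it. This held for 66.8% and 68.2% of motifs outside within 250 bp of a boundary and for 68.2% and 66.2% of those inside within 250 bp, with intervals from 64.0 to 70.8%. More than 250 bp inside, 56.8% and 55.4% pointed toward the middle of the peak. From 250 bp to 10 kb outside, 50.6% and 50.4% pointed to the nearest H3K4me3 peak. The pattern was present away from gene starts. Among boundaries of H3K4me3 peaks without a gene start, 67.3% and 66.8% of motifs within 250 bp on either side pointed inward, and among peaks over 10 kb from any start it was 67.7% and 66.4%. In peaks with a gene start the shares were 69.0% and 67.5%. This comparison was added after the motif directions at gene starts had been seen.

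**Figure D5:**
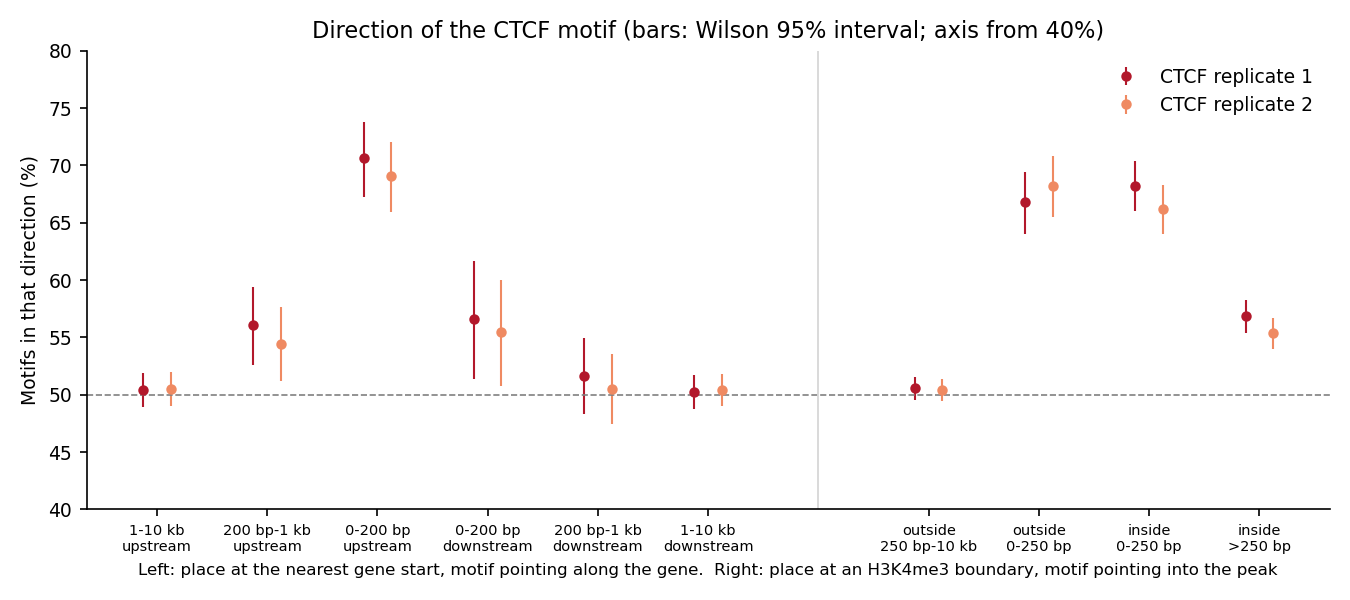
Share of CTCF motifs that read along the gene, by place at the nearest gene start (left), and that point into the H3K4me3 peak, by place at its boundary (right), with Wilson 95% intervals as bars and a dashed line at 50%; the axis starts at 40%. The highest shares are in the 200 bp upstream of a start (70.6% and 69.1%) and within 250 bp of an H3K4me3 boundary, and the distant places sit at 50%.

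Named genes show these arrangements. Over all protein-coding genes, including those with LOC symbols, 12340 starts were under H3K4me3 in both libraries. CTCF was upstream in both libraries at 1506 of them (12.2%). Of the 1435 named protein-coding genes with CTCF upstream and H3K4me3 over the start in both libraries, DHX8, which encodes an RNA helicase of the spliceosome, had the strongest CTCF peak. Its CTCF summit was at -242 and -279 bp with a fold enrichment of 74.5 and 131, inside an H3K4me3 peak with its own summit at 279 and 374 bp downstream. CD300LG followed, with CTCF at -218 and -208 bp (fold enrichment 104 and 100.4) and H3K4me3 at 311 and 250 bp. At FMO4, of the flavin-containing monooxygenases, CTCF was at -115 and -112 bp (79.3 and 106) and H3K4me3 at 266 and 482 bp. In these 3 genes CTCF was upstream and H3K4me3 downstream in both libraries. KDM3B, a histone H3K9 demethylase, had CTCF at -208 and -212 bp (61.2 and 88.1) and H3K4me3 at 493 and 1230 bp. CSMD3, a large membrane protein, had CTCF at -595 and -560 bp (59.1 and 80.7), and C4H8orf59 had it at -506 and -490 bp (52.7 and 82.0). At CSMD3 the motif lay in an exon of another gene, LOC106505092, and at C4H8orf59 it lay within LOC100152714. The motif read along the gene at DHX8, CD300LG, KDM3B and CSMD3 and against it at FMO4 and C4H8orf59.

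On the downstream side 889 named protein-coding genes met the same conditions. Over all 12340 protein-coding starts under H3K4me3 in both libraries, CTCF was downstream in both at 969 (7.85%). CTCF in SMPD4, a neutral sphingomyelinase, was at 897 and 981 bp (58.3 and 76.9), between the start and an H3K4me3 summit at 1448 and 1715 bp. In CCDC83 it was at 242 and 279 bp (60.0 and 74.5) under weak H3K4me3, with a fold enrichment of 4.45 and 4.26. METTL25 had CTCF at 300 and 268 bp (48.7 and 59.5) and its H3K4me3 summit on the other side of the start, at -423 and -608 bp. USH1G, a scaffold protein of hair cells, had CTCF at 259 and 278 bp (50.1 and 64.8). TAF7, a subunit of the general transcription factor TFIID, had it at 567 and 577 bp (49.8 and 56.2), and its H3K4me3 summit was at 319 bp in replicate 1 and -313 bp in replicate 2, so that the libraries differed in side. The motif was along the gene at CCDC83 and against it at USH1G, METTL25 and TAF7. At SMPD4 the best match differed between the libraries, against the gene in replicate 1 and along it in replicate 2.

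CTCF also lay within 1 kb of the start at 160 named protein-coding genes without H3K4me3 within 1 kb in either library. Such genes were few. Over all protein-coding genes, including those with LOC symbols, CTCF was this near at 200 of 5780 starts without H3K4me3 (3.46%). For all protein-coding starts the share was 15.3%. The strongest were AOC2, an amine oxidase, with CTCF at -334 and -347 bp (55.8 and 67.8), NPFF, a neuropeptide precursor, at -744 and -737 bp (53.5 and 68.9), and TLR10, a Toll-like receptor, at -48.0 and -46.0 bp (57.0 and 63.3). At AOC2 the motif lay in an exon of another gene, PSME3. GCNT3, an enzyme of mucin glycosylation, had CTCF at -677 and -640 bp (60.3 and 51.9). KCNA2, a voltage-gated potassium channel, had it downstream at 767 and 740 bp (54.5 and 55.0), and GOT1L1 at 180.0 and 172 bp (54.0 and 54.5). The last was the only one of these 6 without a motif match.

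For each named protein-coding gene, only the CTCF summit nearest to the start was placed relative to the H3K4me3 peak over that start. This summit was within 250 bp of the boundary in both same-numbered pairs at 386 genes. Other CTCF summits at a boundary do not enter the count, and no share of all named genes was computed. CD300LG and KDM3B were the strongest, the summit at KDM3B being at -32.0 bp from the boundary in pair 1 and 54.0 bp in pair 2, where negative values are inside the peak. They were followed by KMT5C, a methyltransferase of histone H4K20, with CTCF at -1741 and -1743 bp and at -138 and -249 bp from the boundary, and LAMTOR5, a subunit of the Ragulator complex on lysosomes, at -1660 and -1650 bp and at -138 and -190.0 bp. All 4 motifs read along the gene, which here is into the H3K4me3 peak. The CTCF summit nearest to the start was inside the H3K4me3 peak and at least 500 bp from both its boundaries at 2010 named genes, among them DHX8, CSMD3 and SMPD4. For this count, too, no share of all named genes was computed.

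Among gene groups, cytosolic ribosomal protein genes had CTCF within 1 kb in both libraries at 28 of 83 starts (33.7%), 20 upstream (24.1%) and 7 downstream (8.43%), beside 12.8%, 7.07% and 5.27% of all starts. For all starts under H3K4me3 in both libraries these shares were 20.8%, 11.95% and 7.95%. H3K4me3 was over 78 of the 83 starts in both libraries (94.0%), beside 50.1% of all starts. RPS29 had CTCF at -583 and -585 bp (56.7 and 62.7), RPS26 at -472 and -476 bp (50.3 and 58.0) and RPL26 at -292 and -182 bp (38.6 and 48.5). The H3K4me3 summit was downstream in both libraries at RPS29 (491 and 822 bp), RPS26 (308 and 693 bp) and RPL26 (351 and 303 bp). No test was run on this list.

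Of 14 genes of CTCF and the cohesin machinery, 4 (28.6%) had CTCF within 1 kb in both libraries. CTCF was this near at 12.8% of all starts and at 20.8% of starts under H3K4me3 in both libraries. PDS5B, a regulator of cohesin release, had it almost at its start (-10 and -12 bp, fold enrichment 41.5 and 77.5). PDS5A, its paralog, had CTCF at -114 and -133 bp (30.02 and 35.7), and NIPBL, the cohesin loader, at -765 and -754 bp (25.6 and 33.6). ESCO2, a cohesin acetyltransferase, had it downstream at 206 and 216 bp (30.1 and 26.4). All 4 were under H3K4me3 in both libraries, which held for 12 of the 14 (85.7%), beside 50.1% of all starts.

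HOX genes carried CTCF within 1 kb at 5 of 36 starts, 3 upstream (8.33%) and 2 downstream (5.56%), beside 7.07% and 5.27% of all starts. H3K4me3 was over 30 of them (83.3%), beside 50.1% of all starts. A single H3K4me3 peak can count for several HOX starts, as did the 42257 bp peak over both HOXA5 and HOXA10 in replicate 2. HOXA5, at 317 and 303 bp (38.1 and 44.1), and HOXA10, at 310.0 and 307 bp (29.98 and 28.7), had CTCF downstream, whereas HOXC5, at -366 and -359 bp (25.9 and 39.0), and HOXC10, at -133 and -134 bp (21.5 and 29.3), had it upstream. Collagen genes had CTCF at 5 of 42 starts, 3 upstream, as in COL23A1 (-566 and -531 bp, 39.9 and 45.3) and COL16A1 (-688 and -685 bp, 23.7 and 43.1), and 2 downstream, one of them COL1A2 (710.0 and 677 bp, 28.8 and 40.3). COL27A1 had it upstream at -479 and -489 bp (16.0 and 22.3). COL1A2 was also the only one of 13 fibroblast genes with CTCF within 1 kb in both libraries (7.69%), beside 12.8% of all starts and 20.8% of those under H3K4me3 in both libraries. Among 14 immediate early genes there were 3 (21.4%), a share close to the 20.8% of starts under H3K4me3, which covered 10 of the 14 starts. These were EGR2 at 616 and 614 bp (16.3 and 25.2), EGR1 at -660.0 and -613 bp (7.98 and 13.7) and MYC at 198 and 207 bp (5.93 and 12.1). EGR2 and MYC had no motif match in either library. By fold enrichment, EGR1 and MYC lay in the weakest of the 4 groups of peaks in replicate 1 and in the next group in replicate 2. Among the 23 listed genes of other cell types, of which TUBB3 was not found, MYOD1 was the only one (4.35%, beside 12.8% of all starts), at 514 and 515 bp (8.73 and 13.3). The shares of HOX and collagen genes, 13.9% and 11.9%, were close to the 12.8% of all starts. They were lower than the 20.8% of all starts under H3K4me3 in both libraries. Of the clustered protocadherins only 2 matched by symbol, both without CTCF or H3K4me3, and no olfactory receptor matched, so these families are not described.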

How the data were processed

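CTCF, H3K4me3 and H3K27ac were profiled by ChIP-seq in PEFs, with 2 libraries each. Per the study's methods, the authors aligned reads with Bowtie2, kept reads of adequate mapping quality, removed duplicates and called narrow peaks in each library against control with MACS2; versions are not given in the sources used here. The deposited peak lists hold, as MACS2 wrote them, a score (not used here), the fold enrichment at the summit, and the −log10 p and −log10 q values. The methods state a q of 0.01, but the highest q in the 4 lists was 0.0432 to 0.0499, and the lists were used as deposited.

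Peaks off chromosomes 1 to 18 and X were left out (435 and 473 of CTCF, 437 and 441 of H3K4me3). Gene starts and sequences were taken from RefSeq for Sscrofa11.1. Each summit was assigned to its nearest gene start. Upstream shares and densities were compared between the 2 groups of 2 libraries by an exact permutation test, which has 6 arrangements, and given with the SD. Shares have Wilson 95% intervals. From 600 peaks, expectation maximisation gave a CTCF motif of 19 bp, and the best match with p under 0.0001 within 100 bp of a summit gave its direction, forward being the strand with more G than C. Same-numbered CTCF and H3K4me3 libraries were set together at H3K4me3 boundaries, with 250 bp as the edge. The sequences printed are those of the motif at CTCF replicate 1.

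Named genes were protein-coding genes with a symbol that does not start with LOC, ranked by mean CTCF fold enrichment over both libraries. The 6 highest were taken with CTCF upstream, downstream and without H3K4me3, and the 4 highest at a boundary of H3K4me3 and at least 500 bp inside it; up to 4 per gene list were named. Some genes that this rule selects are not reported here. Members and lists were chosen with earlier results of these data known. Alternatives were the gene set, the way of assigning starts, the q value, shared peaks, midpoints, edge widths, motif stringency and leaving out each library. Scripts were checked on simulated data and run with Python 3.11.15, numpy 2.4.6, pandas 2.3.3, scipy 1.17.1, pysam 0.24.0 and matplotlib 3.10.9. The input samples were not analysed here.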

Additional observations from a re-analysis of the deposited data

How the results depend on the processing

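The 3 differences between CTCF and H3K4me3 at gene starts kept their direction under all 12 alternatives each, with ranges of 31.1 to 40.9 percentage points (within 1 kb), 6.19 to 17.5 percentage points (1 to 10 kb) and -14.7 to -5.30 (density ratio), the values nearest 0 coming from counting every pair of summit and start. Leaving out 1 library gave 34.5 to 38.7 and 12.0 to 15.3 percentage points and -12.4 to -9.42, where the smallest possible exact permutation p is 0.667. With the replicate number as a block, the differences were 36.6 and 13.7 percentage points and -10.9, with an exact sign-flip p of 0.5, the smallest for 2 pairs; the numbers are names only, and deviations correlated over 19 chromosomes with r = 0.22. The edge to interior ratio of CTCF (0.888 on average) was 0.972 with −log10 q of at least 5 (1.03 and 0.911 in replicates 1 and 2), 0.992 with peaks shared by both replicates (0.936 and 1.05), 0.979 with an edge of 100 bp (1.06 and 0.893), 0.686 in H3K4me3 peaks of at least 2 kb and, on the other side of 1, 1.10 with an edge of 500 bp (1.23 and 0.974). Which library was above 1 thus varied with the setting. The ratio was 0.835 to 0.942 with 1 CTCF library left out. The outer to interior ratio (0.537) was 0.811 and 0.398 with edges of 100 and 500 bp, 0.374 in H3K4me3 peaks of at least 2 kb and 0.495 to 0.579 with 1 library left out. The upstream side share in H3K4me3 peaks was 46.9% (H3K4me3 peaks of at least 2 kb) to 50.9% (shared peaks) over all alternatives and 47.4 to 50.4% with 1 library left out; edge widths do not enter it. Motifs along the gene upstream (62.3% on average) were 60.9% on even-numbered autosomes, 66.8% at isolated starts, 63.6% at protein-coding genes and 61.6 to 63.0% with 1 library left out; downstream (52.5%) they were 55.1% at isolated starts and 52.0 to 53.1% with 1 left out. Motifs into the H3K4me3 peak (67.3%), a result added after the data were seen as were its alternatives, were 67.9% with −log10 q of at least 5, 69.1% with stringent motifs, 66.8% on even-numbered autosomes, 69.2% with an edge of 100 bp and 66.96 to 67.67% with 1 library left out. The cause of these shifts was not tested. With no read counts in the lists, what depth limits was not examined.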

Other observations

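Other gene classes differed in how often CTCF lay within 1 kb of the start in both libraries. It did so at 2985 of 19487 protein-coding starts (15.3%), at 458 of 5399 lncRNA starts (8.48%), at 58 of 2320 pseudogene starts (2.50%) and at 64 of 448 tRNA genes (14.3%). H3K4me3 was over the start in both libraries at 63.3%, 24.2%, 3.19% and 58.5% of these classes. At tRNA genes, which RNA polymerase III transcribes, CTCF was upstream in both libraries at 34 and downstream in both at 27 starts, and many tRNA genes are close to one another, so that 1 CTCF peak can count for several of them.

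In H3K4me3 peaks with exactly 1 gene start, the H3K4me3 summit itself was upstream of the start in 16.4% and 19.4% of the peaks whose CTCF summit was upstream, in 6.96% and 8.89% of those whose CTCF summit was downstream and in 12.6% and 15.3% of those with no CTCF. The peaks with CTCF were also wider, with medians of 2626 and 2851 bp (CTCF upstream) and 3132 and 3258 bp (CTCF downstream) against 2430 and 2546 bp without CTCF. A wider peak holds more sequence in which a CTCF summit can fall, and its part in this was not tested.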
